A study of Mus musculus with 12 samples.

Results

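The genes described here are 52 genes of mitosis, spindle and kinetochore, taken by name from the machinery that divides a cell. Probes were taken by the gene symbol of the array's annotation, old or current. The annotation lists at least 1 probe for 47 of the 52 genes (86 probes in all), and 43 genes, with 76 probes, passed the filter on dim probes and are described by value. They are 43 of the 11917 genes that passed it, out of 18484 genes with an annotated probe. Mki67, Ccnb1, Racgap1, Kif11 and Tacc3 have no probe listed in the annotation used. Ccnb2, Nek2, Bub1 and Kif20a have one, but their brightest probes averaged 6.32, 6.22, 6.42 and 6.31 on the log2 scale, under the background limit of 6.57.

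The cells are mouse leukaemia stem cells driven by MLL-AF9, an oncogenic fusion found in human acute myeloid leukaemia, either wild type (WT) or lacking Terc, the RNA component of telomerase. WT or G3 Terc-/- bone marrow LKS cells (lin-, kit+, sca1+) carrying MLL-AF9 with green fluorescent protein were given to C57BL/6J recipients, 10000 cells each, after 5.5 Gy of irradiation at 6 to 8 weeks of age. Fluorescent, lineage-negative cells positive for Kit and Fcgr were sorted from the bone marrow as each leukaemia appeared, so all groups share the fusion gene, the irradiated telomerase-positive host and the sort. In such mouse lines the G number counts the generations bred without telomerase. The promoter behind the fusion gene, the number of donors and any pooling are not stated in the sources used. The labels mark 3 Terc-/- arrays p-p53 (Ser15) and 2 p-Foxo3a (Ser253), phosphorylated forms of a tumour suppressor and of a FoxO transcription factor, and give no status to Terc-/- replicate 5.

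Entry into mitosis is driven by cyclin-dependent kinase 1 with its cyclins and amplified by Cdc25 phosphatases and by Polo-like and Aurora kinases. Condensin and topoisomerase II fold and untangle the chromosomes, the kinetochore attaches them to the spindle, and the spindle checkpoint holds back the anaphase-promoting complex until all are attached. Transcripts of most of these genes rise towards the G2 and M phases and are low in resting cells, so in a cell population their levels depend on the share of cells that divide. Many of their promoters carry a cell cycle genes homology region (CHR), bound by the DREAM and B-MYB-MuvB complexes, a short way downstream of CCAAT boxes, which bind NF-Y.

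RefSeq promoter sequences (GRCm38.p6, from 250 bases before to 50 bases after the start) were at hand for 43 of the 52 genes, with 45 entries since Prc1 and Cep55 have several starts. TTTGAA, the core of the CHR (TTCAAA on the other strand), occurred in 32 of the 45 entries, or 71.1%, against 17.9% of 32851 mouse promoters of the same length. A CCAAT box (ATTGG on the other strand) occurred in 33, or 73.3%, against 37.4% of all. Both motifs, which can share at most 1 end letter, occurred in 28 entries, or 62.2%, against 6.95% of all. In the 27 entries with a CCAAT box upstream of a CHR, the median distance between their first letters was 28 bases. The 100 bases before the start are printed for a Dsn1 promoter without either motif and for 7 genes of mitotic entry, anaphase, spindle, cytokinesis and chromosome structure with both, so that the arrangement can be seen; capitals mark the CHR core and the CCAAT boxes.
Ube2c (chr2:164769829-164769928, + strand): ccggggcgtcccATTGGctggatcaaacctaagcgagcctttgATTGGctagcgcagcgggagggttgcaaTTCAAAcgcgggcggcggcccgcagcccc
Cdc20 (chr4:118437344-118437443, - strand): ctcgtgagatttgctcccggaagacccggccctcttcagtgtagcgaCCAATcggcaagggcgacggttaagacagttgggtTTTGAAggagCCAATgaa
Prc1 (chr7:80294376-80294475, + strand): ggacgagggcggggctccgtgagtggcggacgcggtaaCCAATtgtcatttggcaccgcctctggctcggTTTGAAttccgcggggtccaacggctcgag
Kif22 (chr7:127042421-127042520, - strand): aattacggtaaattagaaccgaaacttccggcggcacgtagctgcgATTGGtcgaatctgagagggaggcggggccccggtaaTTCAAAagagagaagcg
Cdk1 (chr10:69352913-69353012, - strand): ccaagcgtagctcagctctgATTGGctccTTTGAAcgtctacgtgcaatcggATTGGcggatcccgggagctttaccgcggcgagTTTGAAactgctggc
Top2a (chr11:99024190-99024289, - strand): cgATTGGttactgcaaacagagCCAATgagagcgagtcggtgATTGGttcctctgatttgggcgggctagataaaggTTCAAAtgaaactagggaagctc
Espl1 (chr15:102296193-102296292, + strand): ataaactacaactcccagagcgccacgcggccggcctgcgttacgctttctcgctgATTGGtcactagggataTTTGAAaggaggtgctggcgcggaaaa
Dsn1 (chr2:157007076-157007175, - strand): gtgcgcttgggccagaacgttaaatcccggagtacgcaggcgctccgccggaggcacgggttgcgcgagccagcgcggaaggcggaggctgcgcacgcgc
From the nearest CCAAT box upstream to the CHR core the distance is 28 bases in Ube2c, 35 in Cdc20, 32 in Prc1 and 17 in Espl1. These matches describe letters in a window; binding was not measured.

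Expression was measured on 12 bead arrays, 6 of WT and 6 of Terc-/- cells, and the values are the authors' deposited log2 values, with array medians between 6.57 and 6.58. WT replicates 5 and 6 were nearly identical (as were Terc-/- replicates 2 and 6), since they correlated over probes at 0.996 or more where no other pair of arrays exceeded 0.988. The mean of each pair therefore entered as 1 sample. This left 5 WT and 5 Terc-/- samples, among them 2 of p-p53 (replicates 3 and averaged 2 and 6) and 2 of p-Foxo3a (replicates 1 and 4). The number of samples limits the precision, and nothing in the labels says that they came from separate animals. No listed probe carries the symbol Terc or Trp53, so the knockout could not be checked on these arrays. Of 8 markers of the sorted cells, Kit, Fcgr2b, Cd34, Mpo, Elane, Prtn3 and Ctsg were above background, and Fcgr3 has no listed probe. The log2 of the summed linear values of these 7 was 17.1 in Terc-/- replicate 4, against 17.5 to 17.9 in WT samples. Their median deviation from the WT mean was -0.34 in replicate 4 and 0.13 in replicate 1, against -0.07 to 0.05 in WT. Their p-Foxo3a differences from WT ran from -0.97 to 1.34. The part of this in the mitosis values was not tested. Terc-/- replicate 1 stood apart, also in genes outside mitosis: it held the lowest of the 10 values for 19.8% of all 11917 genes. Differences between the genotypes are therefore given with and without it for single mitosis genes, by their brightest probe, and for their median. Values by role, for other gene lists, for promoter sets and for further probes include it.

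Of the 43 mitosis genes, 37 had their lowest value in Terc-/- replicate 1, and 28 had their highest in WT replicate 4, which held the highest value for 8.58% of all genes. As deviations from each gene's WT mean, the median over the 43 genes was -0.23, 0.07, -0.10, 0.27 and 0.03 in WT replicates 1, 2, 3, 4 and averaged 5 and 6. In the Terc-/- samples it was -0.85 in replicate 1, -0.24 in averaged replicates 2 and 6, -0.05 in replicate 3, -0.27 in replicate 4 and -0.21 in replicate 5. Terc-/- replicate 1 lies apart from the other 9 samples, replicates 3 and 5 fall inside the WT range, and replicate 4 and averaged replicates 2 and 6 lie just under its low end, set by WT replicate 1. In numbers of genes below their WT mean, the WT samples ranged from 6 of 43 (replicate 4) to 41 of 43 (replicate 1), and the Terc-/- samples from 27 (replicate 3) to 42 (replicate 4). Fewer dividing cells and less mitotic RNA per cell cannot be told apart in RNA from a bulk population.

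**Figure D1:**
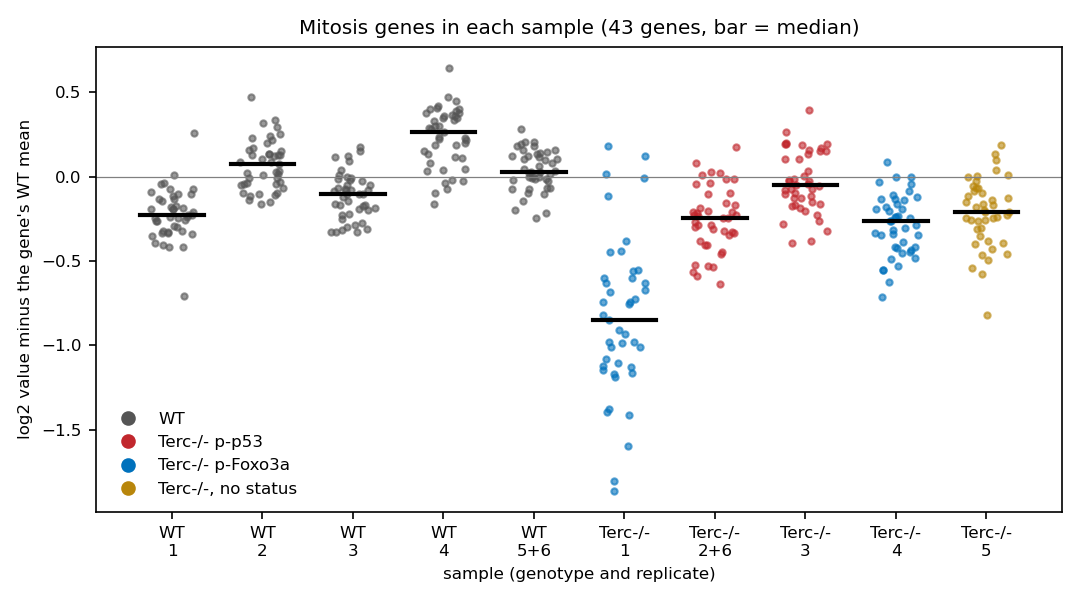
Deviation of each of 43 mitosis genes from its WT mean (vertical axis, log2 units) in each of the 10 samples (horizontal axis); each point is a gene, each bar the median over the genes, and colours give the phosphorylation label. The medians run from 0.27 in WT replicate 4 to -0.85 in Terc-/- replicate 1, and the points of the other Terc-/- samples overlap those of WT replicates 1 and 3.

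The comparison of genotypes asks which transcripts differ when leukaemia stem cells lack telomerase RNA. The mean was lower in Terc-/- for 41 of the 43 mitosis genes, against 54% of all 11917 genes, and the median difference was -0.34 log2 units against -0.01 over all genes. By limma with Benjamini-Hochberg adjustment over all genes, 0 of the 43 passed an adjusted p of 0.05, as did 0% of all genes, and the smallest adjusted p among them was 0.503. At an unadjusted p under 0.05 there were 14, all lower, against 4.64% of all genes. They are Birc5, Cenpf, Dsn1, Ndc80, Spc24, Spc25, Kif22, Tpx2, Dlgap5, Ncapd2, Ncapg, Smc2, Smc4 and Top2a. Without Terc-/- replicate 1, the median difference was -0.19, with 38 genes lower and 9 at an unadjusted p under 0.05 (Birc5, Dsn1, Ndc80, Spc24, Spc25, Tpx2, Ncapg, Smc2 and Smc4), against 3.40% of all genes. Of the 41 lower genes, 3 (Cenpa, Cdca8 and Incenp) turned to 0.00034, 0.03 and 0.09, and 23 had a difference smaller by more than 1.5 times. Their number at that unadjusted p was 24 once Terc-/- replicate 3 was left out (4.98% of all genes). It was 6 with WT replicate 4 left out (4.82%), 8 with WT replicate 2 left out (3.16%) and 9 with averaged WT replicates 5 and 6 left out (3.59%), and 0 of the 43 passed adjustment in each case. Differences below are Terc-/- minus WT with their standard error, and values follow the sample order given for the medians.

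**Figure D2:**
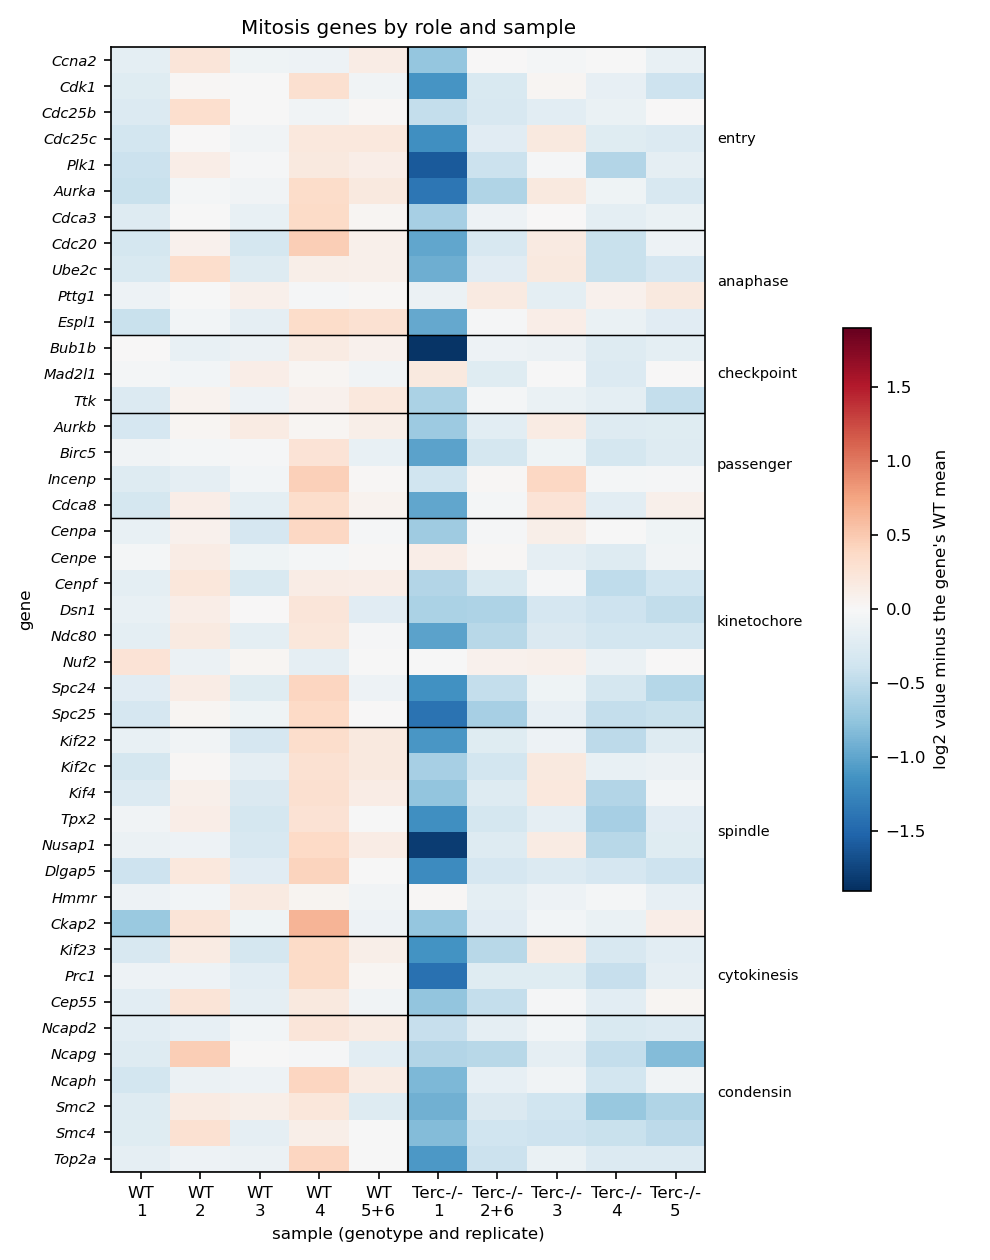
Log2 value minus the gene's WT mean (colour, blue for lower and red for higher) for 43 mitosis genes, grouped by role (rows), in the 10 samples (columns, the vertical line separating WT from Terc-/-). The column of Terc-/- replicate 1 is the darkest blue, down to -1.86 in Bub1b. Many genes are blue in all 5 Terc-/- columns. Among them are Smc2, Smc4, Dsn1 and Ndc80, whose groups did not overlap, and also Prc1, Birc5 and Spc25, whose groups did.

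Among the kinases, cyclins and phosphatases of mitotic entry, 7 of 10 genes were described and all 7 had lower means in Terc-/-, none at an unadjusted p under 0.05. Plk1, the Polo-like kinase of centrosomes, kinetochores and cytokinesis, measured 11.18, 11.71, 11.56, 11.78 and 11.71 in WT and 9.99, 11.18, 11.56, 11.04 and 11.42 in Terc-/- samples. Its lowest value by far was that of Terc-/- replicate 1, and the groups overlapped. The difference was -0.55 ± 0.26 (adjusted p = 0.677), and -0.29 without that sample. Cdca3, a trigger of mitotic entry that feeds the Wee1 kinase to degradation, has the brightest probe of this group. It measured 12.11, 12.34, 12.21, 12.71 and 12.38 in WT and 11.72, 12.26, 12.35, 12.17 and 12.23 in Terc-/- samples. Only Terc-/- replicate 1 lay below the WT range. The difference was -0.21 ± 0.14 (adjusted p = 0.742), and -0.10 without it. Cdk1, the kinase at the centre of entry, Aurka, the Aurora kinase of spindle poles, Ccna2, an S and G2 phase cyclin, and the activating phosphatases Cdc25b and Cdc25c differed by -0.39 ± 0.20, -0.43 ± 0.26, -0.18 ± 0.15, -0.22 ± 0.12 and -0.34 ± 0.22 in that order. Without Terc-/- replicate 1 these were -0.20, -0.19, -0.04, -0.16 and -0.13.

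All 4 genes of the anaphase-promoting complex and cohesin cleavage were described, 3 lower and 1 higher in Terc-/-, none at an unadjusted p under 0.05. Cdc20, the activator of the complex that the spindle checkpoint holds back, measured 11.69, 12.11, 11.69, 12.49 and 12.12 in WT and 11.04, 11.72, 12.19, 11.60 and 11.92 in Terc-/- samples. Its difference was -0.33 ± 0.22 (adjusted p = 0.739), or -0.16 without Terc-/- replicate 1. Ube2c, the ubiquitin-conjugating enzyme of the complex, measured 7.40, 8.03, 7.44, 7.81 and 7.79 in WT and 6.76, 7.48, 7.89, 7.27 and 7.38 in Terc-/- samples. For both genes Terc-/- replicates 1 and 4 lay below every WT sample (in Ube2c replicate 5 as well, narrowly), and replicate 3 lay inside the WT range. The Ube2c difference was -0.34 ± 0.20 (adjusted p = 0.697), or -0.19 without Terc-/- replicate 1. Espl1, the separase that cuts cohesin, differed by -0.24 ± 0.22, or -0.06 without replicate 1. Pttg1, the securin that inhibits separase, was near the background limit (6.66 ± 0.07 in WT and 6.68 ± 0.17 in Terc-/-, SD, n = 5 each) and differed by 0.03 ± 0.09, or 0.06 without replicate 1.

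Of the spindle checkpoint, 3 of 4 genes were described. Mad2l1, which binds and inhibits Cdc20, measured 11.66, 11.65, 11.82, 11.73 and 11.62 in WT and 11.87, 11.46, 11.68, 11.43 and 11.70 in Terc-/- samples. In Mad2l1, unlike most of these genes, Terc-/- replicate 1 holds the highest of the 10 values. Its difference was -0.07 ± 0.09 (adjusted p = 0.884), or -0.13 without that sample. Ttk (Mps1), the kinase that starts checkpoint signalling, measured 7.03, 7.36, 7.19, 7.37 and 7.50 in WT and 6.69, 7.25, 7.17, 7.10 and 6.83 in Terc-/- samples, which is -0.28 ± 0.13 (adjusted p = 0.667), or -0.20 without replicate 1. Bub1b (BubR1), a subunit of the complex that restrains Cdc20, measured 10.005 in Terc-/- replicate 1 and between 11.62 and 11.76 in the other 4 Terc-/- samples, against 11.73 to 12.02 in WT. Its difference was -0.50 ± 0.31, and -0.16 without Terc-/- replicate 1.

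The chromosomal passenger complex corrects faulty attachments and directs cytokinesis, and all 4 of its genes were described. Birc5 (survivin), which has the smallest p of this group and, in the mean of the 10 samples, the brightest probe just ahead of Cdca8, measured 12.49, 12.54, 12.55, 12.83 and 12.42 in WT and 11.55, 12.24, 12.49, 12.23 and 12.32 in Terc-/- samples. Of the Terc-/- samples, replicate 3 alone reached the WT range. The difference was -0.40 ± 0.16 (adjusted p = 0.659), or -0.25 without replicate 1. Aurkb, the kinase of the complex, Cdca8 (borealin) and the scaffold Incenp differed by -0.24 ± 0.15, -0.17 ± 0.22 and -0.01 ± 0.16. Without replicate 1 they differed by -0.13, 0.03 and 0.09, so that the means of Cdca8 and Incenp were higher in Terc-/-.

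At centromere and kinetochore all 8 genes were described, with 7 lower in Terc-/- and 5 of them at an unadjusted p under 0.05. Dsn1, a subunit of the Mis12 complex that links the inner kinetochore to its microtubule-binding part, measured 8.69, 8.96, 8.84, 9.06 and 8.62 in WT and 8.24, 8.25, 8.51, 8.45 and 8.37 in Terc-/- samples. All 5 Terc-/- values lay below all 5 WT values. The difference was -0.47 ± 0.10 (adjusted p = 0.503), or 1.39-fold, and -0.44 without Terc-/- replicate 1. Cenpa, the histone H3 variant that marks the centromere, has the brightest probe of the group and measured 13.89, 14.12, 13.72, 14.42 and 14.00 in WT and 13.36, 14.01, 14.13, 14.03 and 13.94 in Terc-/- samples. Terc-/- replicate 1 alone lay below the WT range. The difference was -0.13 ± 0.17 (adjusted p = 0.860), and 0.00034 without that sample. In the Ndc80 complex, which grips the microtubules, Ndc80 differed by -0.51 ± 0.15, Spc24 by -0.51 ± 0.19 and Spc25 by -0.61 ± 0.22. Without Terc-/- replicate 1 these were -0.38, -0.35 and -0.42. Ndc80 also did not overlap between the groups, with 9.34 to 10.07 in Terc-/- and 10.16 to 10.57 in WT. Nuf2, the partner of Ndc80 in that complex, was near the background limit (6.56 ± 0.16 and 6.57 ± 0.08, SD, n = 5) and differed by 0.01 ± 0.09, or 0.02 without replicate 1. Cenpf, a large protein of the outer kinetochore, differed by -0.35 ± 0.13, and the motor Cenpe, above the limit in 1 sample of each group, by -0.07 ± 0.09. Without replicate 1 they differed by -0.29 and -0.12.

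Of the spindle motors and microtubule-associated proteins 8 of 10 genes were described, all 8 with lower means in Terc-/- and 3 at an unadjusted p under 0.05 (Kif22, Tpx2 and Dlgap5). Tpx2, which activates Aurora A on the spindle, measured 9.22, 9.43, 8.97, 9.58 and 9.29 in WT and 8.13, 8.96, 9.13, 8.67 and 9.09 in Terc-/- samples. Terc-/- replicates 1 and 4 lay well below the WT samples and averaged replicates 2 and 6 just below. The difference was -0.50 ± 0.19 (adjusted p = 0.659), or -0.34 without replicate 1. Nusap1, a protein that bundles spindle microtubules around chromatin, measured 12.06, 12.08, 11.88, 12.56 and 12.32 in WT and 10.38, 11.94, 12.34, 11.65 and 11.94 in Terc-/- samples. Its difference of -0.53 ± 0.32 (adjusted p = 0.703) was -0.21 without Terc-/- replicate 1. The chromosome-bound kinesins Kif22 (Kid) and Kif4 differed by -0.43 ± 0.19 and -0.28 ± 0.19, the microtubule depolymerase Kif2c (MCAK) by -0.21 ± 0.16, Dlgap5 (HURP), a stabiliser of kinetochore fibres, by -0.50 ± 0.20 and Ckap2, a spindle-associated protein, by -0.20 ± 0.24. Without replicate 1, Kif22, Kif4, Kif2c, Dlgap5 and Ckap2 differed by -0.27, -0.16, -0.10, -0.32 and -0.06. Hmmr, a hyaluronan receptor that also binds the spindle, was under the background limit in all 5 Terc-/- samples and in 3 of 5 WT samples, and no fold is given for it. Only WT samples exceeded the limit, so its place among the 8 lower genes can follow from the filter alone.

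For the central spindle and cytokinesis, 3 of 5 genes were described, all lower in Terc-/- and none at an unadjusted p under 0.05. Prc1, which bundles the antiparallel microtubules of the midzone, has the brightest probe and the smallest p of these. It measured 12.93, 12.93, 12.83, 13.39 and 13.07 in WT and 11.62, 12.80, 12.80, 12.59 and 12.87 in Terc-/- samples. All Terc-/- values but that of replicate 5 lay below the WT samples, by little except in replicates 1 and 4. The difference was -0.49 ± 0.23 (adjusted p = 0.674), or -0.27 without replicate 1. Kif23 (MKLP1), a motor of the central spindle, and Cep55, which recruits the abscission machinery, differed by -0.40 ± 0.23 and -0.27 ± 0.16, or -0.22 and -0.16 without replicate 1.

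Condensin and chromosome structure gave 6 described genes of 7, all lower in Terc-/- and 5 of them at an unadjusted p under 0.05, with a median difference of -0.46. Smc4, an ATPase subunit of condensin, measured 8.79, 9.32, 8.86, 9.14 and 9.01 in WT and 8.20, 8.64, 8.63, 8.61 and 8.53 in Terc-/- samples. No Terc-/- value reached the WT range. The difference was -0.50 ± 0.12 (adjusted p = 0.579), or 1.42-fold, and -0.42 without Terc-/- replicate 1. Smc2, its partner ATPase, was likewise separated, at 8.70 to 9.34 in Terc-/- and 9.37 to 9.83 in WT samples, a difference of -0.57 ± 0.14 (adjusted p = 0.579), or -0.48 without replicate 1. Top2a, topoisomerase II alpha, which untangles sister chromatids, measured 12.33, 12.41, 12.39, 12.92 and 12.50 in WT and 11.43, 12.10, 12.38, 12.25 and 12.25 in Terc-/- samples. Its difference was -0.43 ± 0.18 (adjusted p = 0.660), or -0.26 without replicate 1. That is the brightest Top2a probe, and a second one, also well above background (mean 9.59), gave -0.01. The condensin I subunits Ncapd2, Ncapg and Ncaph differed by -0.24 ± 0.11, -0.50 ± 0.15 and -0.30 ± 0.18, or -0.19, -0.49 and -0.16 without replicate 1. Dsn1, Ndc80, Smc2 and Smc4 are thus the 4 of 43 genes whose groups did not overlap with Terc-/- lower, which 0.839% of all genes did.

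The phosphorylation labels were compared in a fit of WT, p-p53 and p-Foxo3a samples. The comparisons share samples, so each one's values are set side by side. p-Foxo3a samples averaged lower than WT for 43 of 43 genes (53.1% of all genes), with a median difference of -0.60 against -0.02 over all genes. Under the stricter filter, which leaves out Cenpe, Hmmr and Nuf2, this was 40 of 40. p-p53 samples averaged lower for 38 of 43 (53.1% of all genes), with a median of -0.13 against -0.01. By limma 0 of the 43 passed adjustment in either comparison, as did 0% of all genes. Against WT, 29 of the 43 were at an unadjusted p under 0.05 in p-Foxo3a, all lower (5.52% of all genes), and 2, Dsn1 and Smc4, in p-p53 (1.36% of all genes). Groups did not overlap, with the labelled samples lower, for 21 genes in p-Foxo3a (7.44% of all genes) and for 5 in p-p53, namely Dsn1, Ndc80, Prc1, Smc2 and Smc4 (4.33% of all genes).

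The p-Foxo3a result depends on Terc-/- replicate 1. Without it, 1 p-Foxo3a sample remains, assumed to vary like the other groups; its median difference from WT was -0.27, with 42 genes lower and 2 at an unadjusted p under 0.05 (Tpx2 at -0.63 and Smc2 at -0.71). That is 4.65% of the 43, near the 3.10% of all genes in that fit. With replicate 1 as the only p-Foxo3a sample the median was -0.85 and 8 of the 43 genes passed an adjusted p of 0.05 by limma, as did 260 of all 11917 genes (2.18%). These 8, Cdk1, Plk1, Bub1b, Birc5, Spc25, Tpx2, Nusap1 and Prc1, describe 1 sample. For p-p53 against WT, the median was -0.05 without averaged replicates 2 and 6, -0.24 without replicate 3 and -0.08 without WT replicate 4, and the number at an unadjusted p under 0.05 lay between 0 and 3 whichever sample was left out, against 1.01% to 2.38% of all genes.

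In p-Foxo3a against WT, the 6 genes of smallest p were Smc2, Tpx2, Plk1, Kif22, Prc1 and Smc4. Smc2 measured 8.70 and 8.90 in Terc-/- replicates 1 and 4 against 9.37, 9.77, 9.73, 9.83 and 9.37 in WT, a difference of -0.81 ± 0.16 (adjusted p = 0.372). Its p-p53 samples measured 9.34 (averaged replicates 2 and 6) and 9.23 (replicate 3). All 4 labelled Terc-/- samples were thus below every WT sample, in p-p53 by a small margin. Tpx2 differed by -0.90 ± 0.19 (adjusted p = 0.384), and the other 4 genes had an adjusted p of 0.460 each. Plk1, at 9.99 and 11.04 against a lowest WT value of 11.18, differed by -1.07 ± 0.28. Kif22 measured 10.65 and 11.26 against 11.44 to 12.09 in WT, which is -0.80 ± 0.21. In all 6 genes both p-Foxo3a samples lay below the WT range, and replicate 1 was the lower of the pair. Prc1 differed by -0.93 ± 0.25 and Smc4 by -0.62 ± 0.17. Without replicate 1, the differences of Smc2, Tpx2, Plk1, Kif22, Prc1 and Smc4 were -0.71, -0.63, -0.55, -0.49, -0.44 and -0.42.

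In p-p53 against WT, the 6 genes of smallest p were Dsn1, Smc4, Ndc80, Smc2, Ncapg and Cdc25b, each with an adjusted p of 1.00 by limma. Dsn1 measured 8.25 and 8.51 in p-p53 samples against a lowest WT value of 8.62, a difference of -0.46 ± 0.15. Smc4 measured 8.64 and 8.63 against a lowest WT value of 8.79, which is -0.39 ± 0.17. Ndc80 differed by -0.41 ± 0.20, Smc2 by -0.32 ± 0.16, Ncapg by -0.35 ± 0.20 and Cdc25b by -0.26 ± 0.16. Of these 6, 5 belong to the kinetochore and condensin groups, which hold 14 of the 43 genes, and no test was made of that share. These are values of the brightest probes. Other kept probes gave -0.12 and 0.12 for Smc4, -0.10 for Ndc80, 0.08 for Smc2, -0.12 and 0.03 for Ncapg and -0.05 for Cdc25b. With the mean of all kept probes, Smc4, Ndc80, Smc2, Ncapg and Cdc25b differed by -0.13, -0.25, -0.12, -0.15 and -0.15. Dsn1 has 1 probe. The p-Foxo3a differences of the same 6 genes were -0.49 ± 0.15 for Dsn1, -0.62 ± 0.17 for Smc4, -0.68 ± 0.20 for Ndc80, -0.81 ± 0.16 for Smc2, -0.50 ± 0.20 for Ncapg and -0.29 ± 0.16 for Cdc25b.

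**Figure D3:**
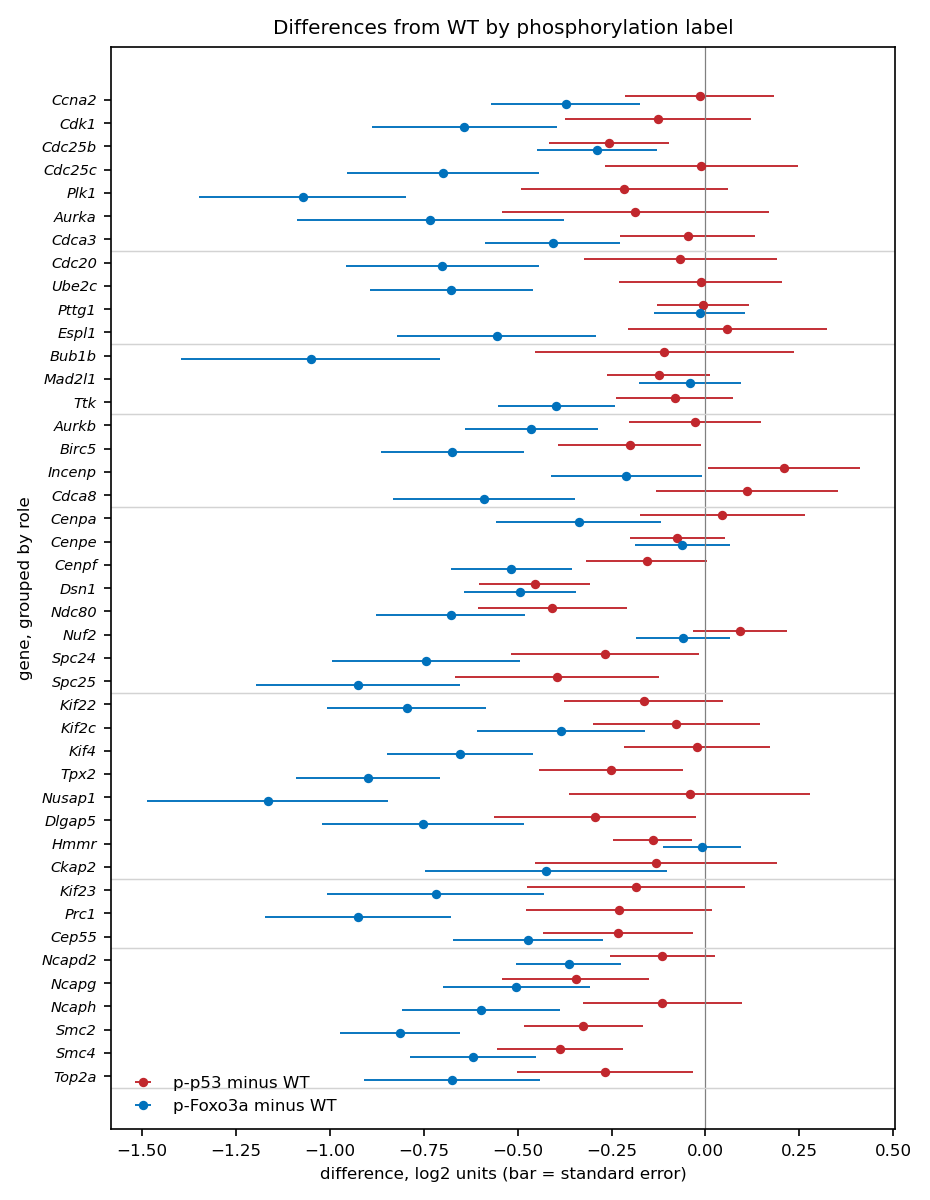
Difference from WT of the p-p53 samples (red) and the p-Foxo3a samples (blue) for each of 43 mitosis genes (rows, grouped by role), in log2 units (horizontal axis), with bars for the standard error and 2 samples per label. The p-Foxo3a points lie left of 0 for all 43 genes and reach -1.17 in Nusap1, while the p-p53 points lie between -0.46 in Dsn1 and 0.21 in Incenp.

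Between the labels, p-p53 averaged higher than p-Foxo3a for 40 of 43 genes (51.8% of all genes), with a median difference of 0.44 against 0.01 over all genes. By limma 0 of the 43 passed adjustment (0% of all genes), and 10 were at an unadjusted p under 0.05, all higher in p-p53 (2.62% of all genes). The 2 groups did not overlap, with p-p53 higher, for 23 genes, which with 2 samples against 2 was so for 15.5% of all genes. The 6 genes of smallest p were Nusap1, Tpx2, Kif4, Plk1, Smc2 and Ube2c, each with an adjusted p of 0.942. Nusap1 measured 11.94 and 12.34 in p-p53 and 10.38 and 11.65 in p-Foxo3a samples, a difference of 1.12 ± 0.38. Kif4 measured 10.23 and 10.67 in p-p53 and 9.71 and 9.92 in p-Foxo3a samples, which is 0.63 ± 0.23. In both genes each p-p53 sample was above each p-Foxo3a sample. Tpx2, Plk1, Smc2 and Ube2c differed by 0.65 ± 0.23, 0.86 ± 0.33, 0.49 ± 0.19 and 0.66 ± 0.26. The median over the 43 genes was 0.13 without Terc-/- replicate 1, 0.29 without replicate 3 and 0.73 without replicate 4. Genes at an unadjusted p under 0.05 and higher in p-p53 numbered 0, 0 and 28 in these cases, against 2.91%, 4.04% and 5.86% of all genes. Without replicate 4, 1 of the 43, Bub1b, passed adjustment (1.75, adjusted p = 0.0109 by limma), as did 29 of all genes; without replicate 3, 12 of all genes passed and 0 of the 43.

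Terc-/- replicate 1 also lay outside the other 9 samples in the medians of chromosomes 2, 6 and 16. The median deviation from WT of the other genes was -0.12 on chromosome 2 (941 genes), 0.18 on chromosome 6 (603 genes) and 0.22 on chromosome 16 (393 genes), which holds none of the 43 genes. In the other 9 samples these medians ran from -0.04 to 0.02, from -0.05 to 0.02 and from -0.05 to 0.02. On chromosome 2 lie 9 of them (Spc25, Bub1b, Nusap1, Ncaph, Cdc25b, Tpx2, Dsn1, Ube2c and Aurka), with a median deviation of -1.17 in that sample. Bub1b (chr2:118598202-118641592, GRCm38.p6) was at -1.86 where 84 other genes within 5 Mb had a median of -0.36. Nusap1 (chr2:119618298-119650165) was at -1.80 where 83 such genes had -0.33. The other 7 had neighbours between -0.13 and -0.06, so the mitosis genes were further down than their surroundings in all 9. On chromosome 6, Mad2l1 was at 0.18 with neighbours at 0.19, while Cdca3 was at -0.63 and Ncapd2 at -0.44 with neighbours at 0.25 and 0.24. The 31 genes on other chromosomes had a median of -0.82. With each gene's local median taken off in every sample, the median difference of the 43 genes was -0.30 in Terc-/- against WT and -0.58 in p-Foxo3a against WT. Without the genes of chromosomes 2, 6 and 16 it was -0.33 and -0.59.

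**Figure D4:**
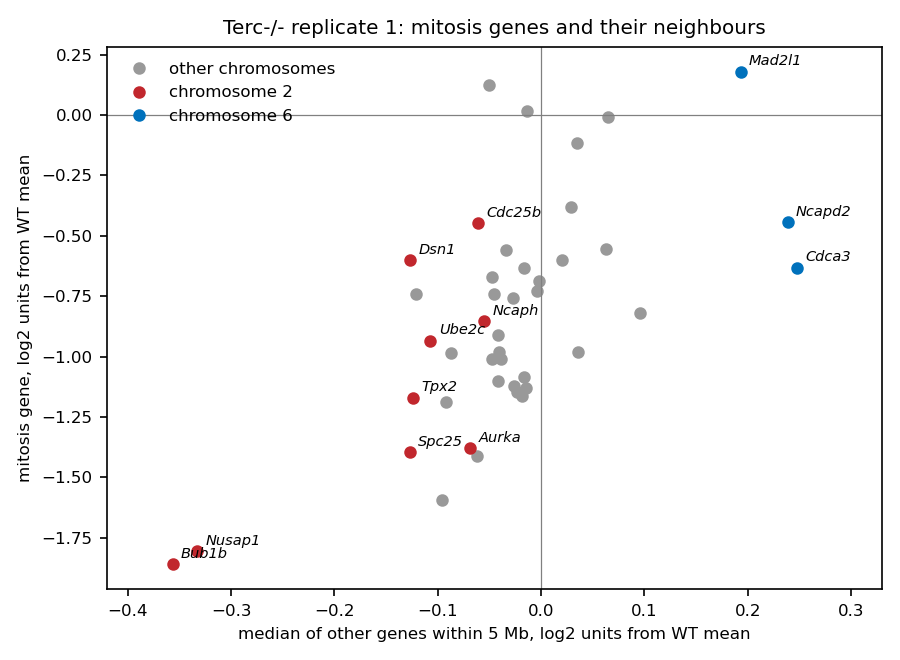
Deviation from the WT mean in Terc-/- replicate 1 of each mitosis gene (vertical axis, log2 units) against the median deviation of the other genes within 5 Mb (horizontal axis, log2 units), coloured by chromosome. Bub1b and Nusap1 lie at the lower left, with their neighbours at -0.36 and -0.33, and the 31 genes on other chromosomes have a median of -0.82 with neighbours near 0.

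The genes co-varied across samples. Over the 903 pairs among the 43 genes, the median Pearson correlation across the 10 samples was 0.78, and 75.1% of pairs were above 0.5, against a median of 0.01 and 9.42% for all genes. In the 9 samples without Terc-/- replicate 1, the median was 0.59 and 63.0% of pairs were above 0.5, against 10.2% for all genes. These correlations are descriptions, since the points share arrays and 2 genotypes. Against the mean of the other genes, 33 of the 43 correlated above 0.8, led by Spc25 at 0.98 and by Dlgap5, Plk1, Top2a and Spc24 between 0.96 and 0.97. Correlations with this mean were not taken over all genes, so how common such values are is not known. Without Terc-/- replicate 1, 23 were above 0.8 and 7 under 0.5, with Ccna2 at 0.32 where it had been 0.80. Over 10 samples the 5 genes under 0.5 were Nuf2, Mad2l1, Cenpe, Hmmr and Pttg1. All but Mad2l1 of these are near the background limit, and Mad2l1 correlated at -0.21 over 10 samples and 0.49 without Terc-/- replicate 1.

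By promoter, the 26 described genes with a CHR core had a median difference of -0.34 in Terc-/- against WT and -0.65 in p-Foxo3a against WT. The 9 without one, Dsn1 and Birc5 among them, had -0.22 and -0.29, and the 8 without a promoter entry had -0.42 and -0.66. In p-p53 against WT the medians lay close together, at -0.14 with a CHR core, -0.11 without one and -0.14 without an entry. In Terc-/- replicate 1, a p-Foxo3a sample, the median deviations from the WT mean were -0.96, -0.45 and -0.98 in that order. The probes of the genes with the motif were also brighter, with a median of 11.06 against 8.60, and 4 of those 9 (Nuf2, Cenpe, Pttg1 and Mad2l1) are near the limit or on chromosome 6. The part of these features, and of Terc-/- replicate 1, in the medians was not tested.

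Of 23 genes with more than 1 kept probe, 4 (Cdk1, Kif23, Smc2 and Smc4) had probes of opposite sign in Terc-/- against WT. Smc2 differed by -0.57 on its brightest probe and by 0.03 on a probe near the background limit (mean 6.58), and Cdk1 by -0.39 and 0.11 (mean 6.71). The 3 probes of Smc4 gave -0.50, -0.29 and 0.02 at similar brightness, and 3 of 4 probes of Kif23 gave -0.40, -0.37 and -0.44 while the remaining one gave 0.06. Probes of opposite sign were found in Cdk1, Mad2l1 and Smc2 for p-Foxo3a against WT. The same held for Ndc80 and Ttk between the labels, and for 8 genes in p-p53 against WT (Cdc20, Cdk1, Ncapd2, Ncapg, Nusap1, Smc2, Smc4 and Top2a). With the mean of all kept probes the median over the 43 genes was -0.26 in Terc-/- and -0.46 in p-Foxo3a against WT.

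Other genes of mitosis gave smaller medians. Of 94 listed (among them subunits of the anaphase-promoting complex, centromere proteins, augmin and cohesin), 77 were described. The mean was lower in Terc-/- than in WT for 70 of the 77 (54% of all genes), with a median difference of -0.21 over the 77. By limma 16 were lower at an unadjusted p under 0.05 (4.64% of all genes) and 0 passed adjustment. Their p-Foxo3a median was -0.34, with 74 of 77 lower (53.1% of all genes). The 3 of smallest p were Cit, the citron kinase of cytokinesis, at -0.40 ± 0.10, Ckap2l, a spindle protein, at -0.39 ± 0.12, and Zwilch, a subunit of the kinetochore's dynein-recruiting complex, at -0.42 ± 0.13. Of 48 genes of the G1/S transition and DNA replication, 44 were described, with a median difference of -0.23 in Terc-/- against WT. Of these 44, 38 were lower (54% of all genes), 12 of them at an unadjusted p under 0.05 (4.64% of all genes), and 0 passed adjustment. Their medians were -0.25 in p-Foxo3a and -0.15 in p-p53 against WT, and 0.09 between p-p53 and p-Foxo3a, where the 43 mitosis genes had 0.44. The 77 other mitosis genes had 0.25 between these labels, with 70 of the 77 higher in p-p53 (51.8% of all genes). In Terc-/- replicate 1 the replication genes were at -0.49 and the other mitosis genes at -0.57. In the remaining Terc-/- samples the replication genes ran from -0.25 to -0.04, against -0.13 to 0.16 in WT. The other mitosis genes ran from -0.19 to -0.06 there, against -0.15 to 0.11 in WT. The differences in this paragraph include Terc-/- replicate 1.

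Markers of other blood cells were set beside these values. Of 12 mature neutrophil markers 10 were above background (Camp, Ltf, Ngp, Lcn2, Mmp9, Cxcr2, Retnlg, S100a8, S100a9 and Olfm4), Mmp8 was not, and Ly6g has no listed probe. Their median deviation was -0.43, 0.31, -0.47, 0.59 and 0.11 in the WT samples and -0.15, -1.88, 0.52, -1.65 and -0.51 in the Terc-/- samples. WT replicate 4 and Terc-/- replicate 3 are the highest of their groups, as they are for the mitosis genes. Averaged Terc-/- replicates 2 and 6 and replicate 4 are the lowest for the neutrophil markers. For the mitosis genes they lie close to replicate 5, at -0.24, -0.27 and -0.21 in that order. Terc-/- replicate 1, the lowest sample for the mitosis genes, is not low for the neutrophil markers. The log2 of their summed linear values ran from 16.6 to 17.6 in WT and from 15.3 to 17.7 in Terc-/- samples. The part of neutrophil content in the mitosis values was not tested. Of 13 erythroid markers 6 were above background, with Hbb-b2, Alas2 and Slc4a1 not above it, and their summed levels ran from 9.11 to 9.62 in WT and from 9.12 to 9.48 in Terc-/- samples. Of 8 T and NK cell markers 4 were above background (Cd3d, Cd4, Nkg7 and Klrb1c) and Cd3e, Cd3g and Cd8a were not. Their summed level was 14.2 in Terc-/- replicate 1, against 11.5 to 12.9 in WT and 10.03 to 14.03 in the other Terc-/- samples. A sum follows its brightest genes. The median deviation of these 4 in Terc-/- replicate 1 was 0.02, inside the WT range of -0.28 to 0.18. All 4 mast and basophil markers (Mcpt8, Cpa3, Ms4a2 and Fcer1a) were above background, with a summed level of 8.78 in Terc-/- replicate 1, the lowest of 10, against 9.13 to 12.4 in WT and 9.15 to 11.7 in the other Terc-/- samples. Their median deviation was -0.161 in Terc-/- replicate 1, -0.126 in replicate 4 and 0.444 in averaged replicates 2 and 6. These lie outside the WT range of -0.125 to 0.138. Of 12 monocyte and macrophage markers 7 were above background, with sums from 12.5 to 13.9 in WT and from 11.9 (replicate 4) to 14.5 (averaged replicates 2 and 6) in Terc-/- samples. Their median deviation in averaged replicates 2 and 6 was 0.15, inside the WT range of -0.10 to 0.34. In Terc-/- replicates 1 and 4 it was -0.22 and -0.18, below that range. Of 4 megakaryocyte markers Itga2b and Gp9 were above background and Pf4 and Ppbp were not, with sums from 8.30 to 9.22 in WT and from 8.34 (replicate 4) to 10.7 (averaged replicates 2 and 6) in Terc-/- samples. The median deviation of Itga2b and Gp9 in averaged Terc-/- replicates 2 and 6 was 1.24, above the WT range of -0.26 to 0.67. For 3 of 6 B cell markers, Pax5 not among them, sums ran from 10.4 to 11.4 in WT and from 10.8 to 11.5 in Terc-/- samples. The part of these cells in the mitosis values was not tested either.

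**Figure D5:**
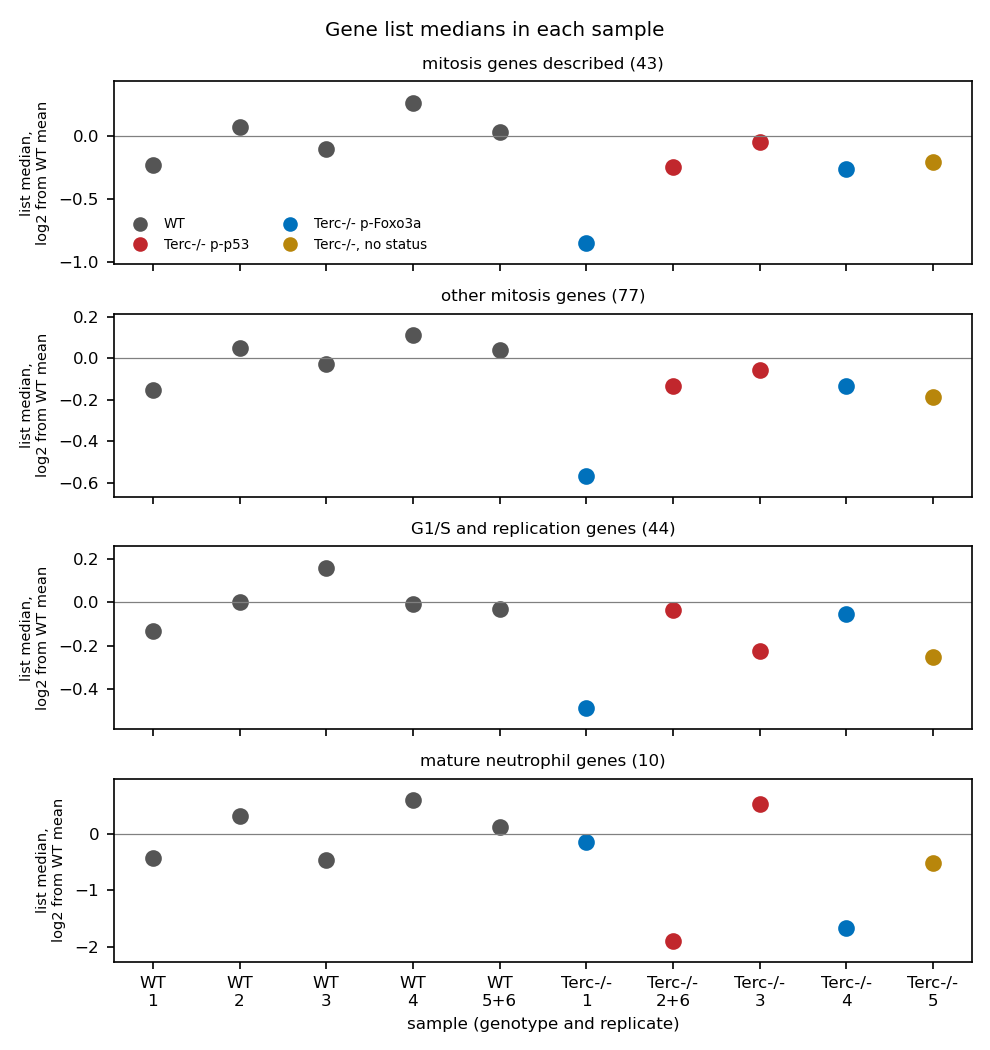
Median deviation from the WT mean (vertical axes, log2 units, scaled separately) of 43 mitosis genes, 77 other mitosis genes, 44 G1/S and replication genes and 10 mature neutrophil genes in each of the 10 samples (horizontal axis), coloured by phosphorylation label. Terc-/- replicate 1 is the lowest sample in the upper 3 panels, at -0.85, -0.57 and -0.49, and lies at -0.15 for the neutrophil genes, where Terc-/- replicates 2 and 6 and replicate 4 are lowest.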

How the data were processed

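The log2 values analysed are those the authors deposited for 38502 probes on 12 arrays. The submitters' processing notes name GenomeStudio without a version, and no source used here gives the normalization or the treatment of background. The log base was read from the range of values. A deposited table of raw signals, whose 24 columns match no sample by name, was used in no step. The background limit of 6.57 is the mode of all values (6.35) plus the spread on its lower side (SD 0.134), set to leave a tail p of 0.05. Probes had to exceed it on at least 3 of 12 arrays (21965 probes), and the brightest kept probe stood for each of 11917 genes, chosen without the groups. The annotation gives 1 gene to 32034 probes; 31976 matched the RefSeq gene table (GRCm38.p6). No background subtraction is visible, so folds understate changes of dim genes.

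The group tests were limma's (version 3.58.1, R 4.3.3, functions lmFit and eBayes), two-sided, with Benjamini-Hochberg adjustment over all genes and a threshold of 0.05; Terc-/- replicate 5 entered only the comparison of genotypes. The fits were checked on simulated data. The p-values reflect only the spread among these samples, which may be technical. The genes and lists were chosen with earlier results of these data known. Values in every sample are given for the brightest gene and the gene of smallest p per role, and label comparisons name the 6 genes of smallest p. Genes with probes of opposite sign, the genes on chromosome 2, and 3 of the other mitosis genes are also named. Bub1b in the checkpoint paragraph, Mad2l1 and Cdca3 beside chromosome 6, and the genes listed for their correlation were chosen after their values were seen. So was the second probe of Top2a. Alternatives covered the filter, probe choice, scaling, floor, variance model, array count, replicate block, chromosomes and leaving out each sample; taking off the local chromosome median was chosen after seeing the data.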

Additional observations from a re-analysis of the deposited data

Results flagged for a closer look

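In groups of 5 samples, the gap of the lowest or highest sample to its nearest neighbour exceeded 0.71 of the group's range for 10 of 88 sets of values examined. Chance flags about 1 in 20 of independent sets. These sets share the same samples and co-varying genes, and 8 of the 10 flags fall on Terc-/- replicate 1. Their number therefore cannot be set against that rate. Terc-/- replicate 1 was the lowest of its group by this measure for Ccna2 (6.94), Bub1b (10.005), Birc5 (11.55), Cenpa (13.36), Dlgap5 (8.42), Prc1 (11.62) and Smc4 (8.20), and for the median deviation over the 43 mitosis genes (-0.85). WT replicate 1 was the lowest WT sample for Aurkb (11.45), and WT replicate 4 the highest for Top2a (12.92).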

How the results depend on the processing

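With each sample left out in turn, the median difference of the mitosis genes ran from -0.45 to -0.19 in Terc-/- against WT, from -0.24 to -0.05 in p-p53 against WT, from -0.85 to -0.27 in p-Foxo3a against WT and from 0.13 to 0.73 between p-p53 and p-Foxo3a. The genes past adjustment numbered 0 to 8 in p-Foxo3a against WT and 0 to 1 between the labels, the highest in both without Terc-/- replicate 4, and 0 throughout in the other comparisons. In Terc-/- against WT, Cenpa ran from -0.21 to 0.00034 and changed sign without Terc-/- replicate 1; it was the 1 reversal among 288 alternative values of 14 named genes. In p-Foxo3a against WT, Tpx2, Plk1 and Prc1 passed without Terc-/- replicate 4 (adjusted p = 0.0443, 0.0294 and 0.0288 by limma), and the other 116 of 119 values kept direction and side of the threshold, as did all 118 and 117 values in p-p53 against WT and between the labels. With the replicate number as a block over 12 arrays, 0 mitosis genes passed (median -0.34). At an unadjusted p under 0.05, 23 mitosis genes (53.5%) were lower, against 6.03% of all genes. Without the block there were 19 (44.2%), against 6.6% of all genes. Both fits count the nearly identical arrays, averaged in the main fits, as separate samples. Deviations from the group means correlated from -0.22 to 0.15 between same-numbered arrays, and 0 of 6 matched best with their own number. Whether same-numbered arrays shared any handling is not stated in the labels and cannot be told from these correlations. Under the alternatives on filter, probe choice, scaling, floor, variance model, array count and chromosomes, the medians kept their direction and 0 mitosis genes passed. The number of samples and, for Pttg1, Nuf2, Cenpe and Hmmr, signal near background limit these values.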
